A study of Mus musculus with 12 samples.

Results

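The heterogeneous nuclear ribonucleoproteins (Hnrnp genes) and the serine and arginine-rich splicing factors (Srsf genes) were taken as every gene whose symbol starts with Hnrnp, or with Srsf and a digit. Reads counted when the authors' tail call had passed, the line was of the mRNA class and the transcript was not a pseudogene. By this rule 30 of the 14011 genes with such reads were members, with 48851 of 4212664 reads. The 20 Hnrnp genes held 38664 reads and the 10 Srsf genes 10187. They lay on 16 chromosomes and had reads on 160 transcripts. Of 31 genes with such symbols in the annotation, 1 (Srsf12) had no read.

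Splicing of a pre-mRNA is steered by proteins that bind exons and introns beside the spliceosome. SR proteins carry an RNA recognition motif and a tail of arginine and serine repeats, and typically bind exonic enhancers and promote inclusion of the exon. Most hnRNP proteins coat nascent RNA through RNA recognition motifs or KH domains and often act against inclusion, although their effect depends on where they bind. Many genes of both families control their own level through an exon or intron with an early stop codon (a poison exon), whose inclusion sends the mRNA to nonsense-mediated decay (NMD). Neuronal differentiation is known for wide changes of splicing.

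The RNA was that of P19, an embryonal carcinoma line from mouse of wild-type genotype, before differentiation (D0) and after 2, 4 and 6 days (D2, D4 and D6) in a neural medium with retinoic acid, which turns the cells into neuron-like cells. The cells are kept in medium with serum before induction, so medium and retinoic acid change together and cannot be told apart. Each day had 3 biological replicates, 12 libraries in all. Poly(A) RNA was read directly on nanopores, so that 1 read gives a transcript, its 3′ end and its poly(A) tail. Levels are given as RPM, the reads of a gene per 1000000 kept reads of its library after trimmed mean scaling between libraries, with 1 read for each molecule sequenced and no correction for length. In bulk RNA, fewer cells that express a gene and less of its RNA per cell cannot be told apart.

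Kept reads ranged from 118587 (D2 replicate 1) to 602155 (D0 replicate 2), and reads on the members from 1312 to 6045. All 3 libraries of a day shared sequencing runs and no run held 2 days. By the dates in the run names, D0 was sequenced in December, D2 and D4 in January and D6 in both months, with 44.5% to 44.6% of its reads from December. The run names of D0 call the cells undifferentiated but carry the tag D2, for which the sources used here give no reason. Run and day therefore cannot be told apart, nor month and day for D2 and D4 against D0, and D6 was also compared with D0 within December. With shared runs, the spread between replicates does not include the spread between runs. The share of the members' reads that started in the first 50 bases of the transcript ran from 14.6% (D0 replicate 1) to 40.4% (D4 replicate 2), so most reads lacked the 5′ end. Their median aligned length was 881 to 1445 bases and was highest at D4. As a check of the labels, 5 of 8 markers of pluripotent cells had enough reads for a test and all 5 fell at each day, while 8 of 8 neuron markers rose by D6 (limma, Benjamini-Hochberg). Of the neuron markers, 2 rose and 2 fell at D2, and 7 rose at D4. Of 10 markers of other cell types, 5 had no read (Afp, Gata4, Myh6, Sox17 and T) and their summed level was 21.6 to 25.6 RPM at D0 and 0 to 11.1 at D6.

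The first comparison asked how much RNA of each member was present on each day. Before scaling, the members made up 1.04% ± 0.061 of kept reads at D0 (SD, n = 3) and 1.27% ± 0.073 at D6, with 0.842% and 0.990% for the Hnrnp genes and 0.202% and 0.276% for the Srsf genes, and the D0 and D6 libraries did not overlap. With the trimmed mean scaling used for all levels below, the summed level of the members was 1.18%, 1.14% and 1.10% of scaled reads at D0 and 1.18%, 1.21% and 1.16% at D6. The Hnrnp genes held 0.960%, 0.910% and 0.889% at D0 and 0.912%, 0.949% and 0.919% at D6. For all members and for the Hnrnp genes the libraries of these days then overlapped. The Srsf genes held 0.221%, 0.228% and 0.213% at D0 and 0.273%, 0.260% and 0.243% at D6 and did not overlap on either scale. By limma-voom over 9291 genes with Benjamini-Hochberg adjustment, 12 of the 30 members rose and 3 fell at D6. Over all genes tested 19.3% rose and 18.3% fell at D6. The members that rose were Hnrnph1, Hnrnph2, Hnrnph3, Hnrnpdl, Hnrnpr, Hnrnpa0, Srsf1, Srsf4, Srsf5, Srsf6, Srsf7 and Srsf11, and those that fell were Hnrnpf, Hnrnpu and Srsf9. Within the December runs 11 of these 15 calls were kept, with Hnrnph1 at 1.21, Srsf9 at -1.39, Hnrnpf at -0.91 and Hnrnph3, at 1.44 with all D6 reads, at 0.74 (limma, adjusted p = 0.0459) on the log2 scale. Srsf1 (0.42), Srsf6 (0.47), Srsf7 (0.27) and Srsf11 (0.48) were then not called. The median member changed by 0.08 on the log2 scale against 0.01 over all genes. Among the Srsf genes 6 of 10 rose, 1 fell and the median was 0.41, while among the Hnrnp genes 6 of 20 rose, 2 fell and the median was 0.03.

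At D4, 8 members rose and 3 fell, where 12.7% of all genes rose and 12.8% fell. At D2, 3 members rose (Hnrnpdl, Srsf4 and Srsf7) and 1 fell (Srsf9), where 4.53% of all genes rose and 6.26% fell. The D2 count was higher under scaling by total reads and moved on leaving out 1 library, as given in the closing section. Every member called at D2 or D4 was called in the same direction at D6. The 3 comparisons share the D0 libraries. Scaling by total reads in place of the trimmed mean gave the median gene a change of 0.13, 0.12 and 0.25 on the 3 days in order, against -0.05, -0.00 and 0.01, and all log2 changes here use the trimmed mean scaling. Its factors ran from 0.882 (D0 replicate 2) to 1.11 (D6 replicate 2).

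**Figure D1:**
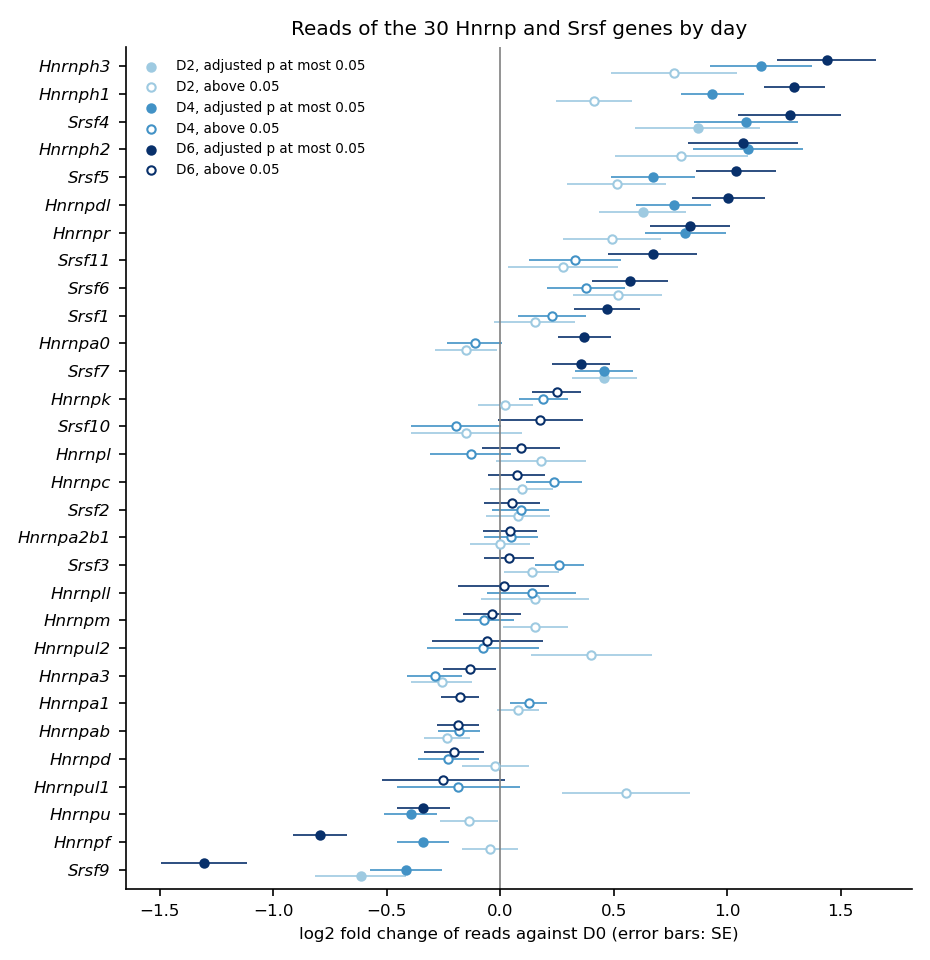
Log2 fold change of reads against D0 for each of the 30 genes, with the standard error as bar. Points are D2 (light), D4 and D6 (dark), filled where the adjusted p is at most 0.05. Hnrnph3, Hnrnph1 and Srsf4 lie farthest to the right at D6 (1.44, 1.30 and 1.28), and Srsf9 and Hnrnpf farthest to the left (-1.31 and -0.79).

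The genes of the hnRNP H/F proteins, which bind runs of G through closely related recognition motifs, were all called for reads at D6. Hnrnpf was called lower and Hnrnph1, Hnrnph2 and Hnrnph3 higher. Hnrnpf was the main gene of the group at D0. It had 643, 655 and 576 RPM at D0, 504, 640.4 and 642 at D2, 482, 502 and 491 at D4 and 359, 364 and 355 at D6. The D0 and D6 libraries did not overlap, and the gene fell by 0.79 ± 0.12 (SE) on the log2 scale (limma, adjusted p = 1.28e-07). Hnrnph1 had 197, 209 and 224 RPM at D0, 240.1, 339 and 243 at D2, 358, 404 and 435 at D4 and 566, 479.6 and 519.8 at D6. All later libraries lay above D0. It rose by 0.94 ± 0.14 at D4 and 1.30 ± 0.13 at D6 (limma, adjusted p = 2.34e-12). Hnrnph3, a shorter relative, had 45.6, 50.8 and 57.6 RPM at D0, 72, 118 and 64.7 at D2, 111, 136 and 98.8 at D4 and 141, 141 and 140.3 at D6. The D6 libraries differed from each other by less than 1 on this scale, and the rise was 1.44 ± 0.22 (limma, adjusted p = 1.77e-07). Hnrnph2, the X-linked member, had 57.6, 56.5 and 32 RPM at D0, 80, 65.3 and 108 at D2, 136, 98.1 and 87 at D4 and 115, 95.9 and 93.5 at D6. Its rise of 1.07 ± 0.24 at D6 (limma, adjusted p = 0.000287) was already reached at D4 (1.09 ± 0.24).

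Set against each other, the reads of these 4 genes shifted from Hnrnpf to Hnrnph1. Of the reads of the 4 genes, Hnrnpf made up 68.2%, 67.4% and 64.7% at D0, 56.2%, 55.1% and 60.7% at D2, 44.3%, 44% and 44.2% at D4 and 30.4%, 33.7% and 32% at D6. Hnrnph1 made up 20.9%, 21.5% and 25.2% at D0, 26.8%, 29.1% and 23% at D2, 33%, 35.4% and 39.1% at D4 and 48%, 44.4% and 46.9% at D6. Hnrnph2 went from 5.17% ± 1.37 to 9.01% ± 0.65 and Hnrnph3 from 5.51% ± 0.86 to 12.5% ± 0.56 (SD, n = 3). For all 4 shares the D0 and D6 libraries did not overlap, which gives 0.10 in a two-sided exact permutation test, the smallest p that 3 against 3 libraries allow. The summed level of the 4 genes was 934 ± 41 RPM at D0 and 1123 ± 51 at D6 (exact permutation p = 0.10). Only 22.8% of the Hnrnpf reads had a mapping quality of at least 10. With those reads alone Hnrnpf was higher at D4 (0.76, limma, adjusted p = 0.0437) and changed by -0.01 at D6, which ended its call. The D4 call of a fall was lost without D0 replicate 1 (-0.30), D0 replicate 2 (-0.31) or D4 replicate 3 (-0.32), under scaling by total reads (-0.22) and with limma's trend in place of voom weights (-0.34, adjusted p = 0.0539). The calls of Hnrnph1, Hnrnph2 and Hnrnph3 at D6 were kept under that and every other setting tried.

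**Figure D2:**
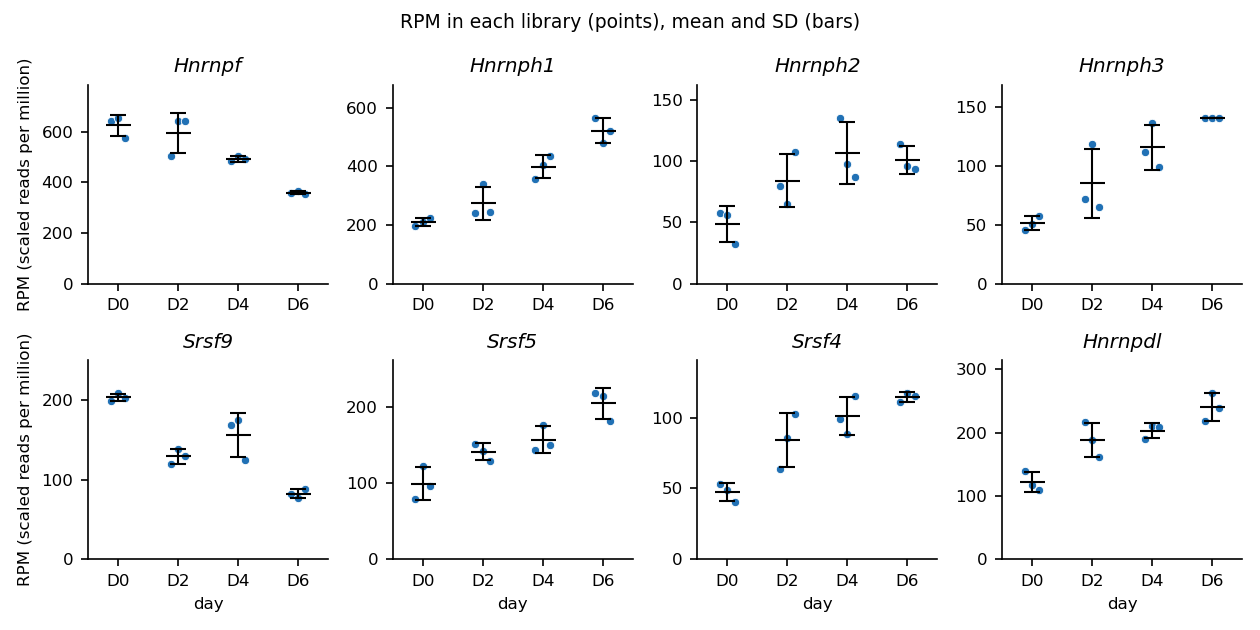
RPM (vertical axis, from 0) in each library for 8 members at D0, D2, D4 and D6. Points are libraries and bars the mean and SD of 3. Hnrnpf drops from a mean of 625 to one of 359 between D0 and D6 while Hnrnph1, Hnrnph2, Hnrnph3, Srsf4, Srsf5 and Hnrnpdl climb, and Srsf9 ends at 76.7 to 88.0.

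The largest group, the A, B and D type hnRNPs, held most of the Hnrnp reads, and 5 of these 7 genes were not called at D6. Hnrnpa1, a general splicing repressor and the member with most reads, had 2106, 2012 and 1867 RPM at D0, 1880.4, 2370.0 and 1991 at D2, 1961, 2385 and 2123 at D4 and 1624, 1867 and 1755 at D6. The D0 and D6 libraries overlapped and it was not called at any day (-0.18 ± 0.08 at D6, limma, adjusted p = 0.0882). Hnrnpab, a relative that also binds single-stranded DNA, had 1144, 1204 and 1293 RPM at D0, 1016, 999 and 1079 at D2, 1050.3, 1131 and 1028 at D4 and 1069, 1099.8 and 1029 at D6. Its D0 libraries lay above all later ones, yet the difference was not called (-0.19 ± 0.09 at D6, limma, adjusted p = 0.104). Hnrnpa2b1, Hnrnpa3 and Hnrnpd (AUF1, which binds AU-rich elements of unstable mRNAs) were not called either, with changes at D6 of 0.04 ± 0.12, -0.13 ± 0.12 and -0.20 ± 0.13.

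Hnrnpdl, the D-like gene, stood apart from these. It had 139, 117 and 109 RPM at D0, 216, 188 and 162 at D2, 189, 211 and 209 at D4 and 218, 262 and 239 at D6. All later libraries lay above all of D0 and it rose at each day, by 0.63 ± 0.19 at D2, 0.76 ± 0.17 at D4 and 1.01 ± 0.16 at D6 (limma, adjusted p = 0.0232, 0.000236 and 5.72e-07). The D2 call was lost without D0 replicate 2 (0.60), D0 replicate 3 (0.57), D2 replicate 1 (0.51) or D2 replicate 2 (0.65). Hnrnpa0, which binds AU-rich elements and had reads on 1 transcript, had 650.0, 548 and 636 RPM at D0, 384, 599.6 and 631 at D2, 502, 632 and 543 at D4 and 836, 725 and 817 at D6. Only the D6 libraries lay above D0, with a rise of 0.37 ± 0.12 (limma, adjusted p = 0.00777) that was lost without D0 replicate 2 (0.28) or D6 replicate 3 (0.31), or with limma's trend in place of voom weights (0.38, adjusted p = 0.0542), and was 0.61 under scaling by total reads.

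Of the other hnRNPs, 2 changed at D6. Hnrnpr, which binds mRNAs carried into axons, had 110.3, 96 and 102 RPM at D0, 144, 184 and 103 at D2, 185, 182 and 176 at D4 and 166, 189.7 and 189.8 at D6. All D4 and D6 libraries lay above D0 and the rise was 0.82 ± 0.18 at D4 and 0.84 ± 0.18 at D6 (limma, adjusted p = 0.000236 and 9.51e-05). Just 5.75% of its reads had a mapping quality of at least 10, and with those alone the change was -0.06 at D4 and 1.14 at D6, and neither was called. Hnrnpu, a scaffold protein of the nuclear matrix, had 607, 627 and 531 RPM at D0, 464, 587 and 523 at D2, 399.5, 462 and 468 at D4 and 455, 477 and 457 at D6. It fell by 0.40 ± 0.12 at D4 and by 0.34 ± 0.12 at D6 (limma, adjusted p = 0.00827 and 0.0164). The D6 call was lost without D0 replicate 2 (-0.30) and under scaling by total reads (-0.11).

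Hnrnpk, a KH domain protein that binds runs of C, had 676, 693 and 655 RPM at D0, 576, 787 and 664 at D2, 889.7, 744 and 715 at D4 and 792, 795 and 819.6 at D6. Its D6 libraries lay above those of D0 and the change of 0.25 ± 0.11 was just short of the call (limma, adjusted p = 0.0591). Hnrnpc, which binds runs of U, Hnrnpm, the CA-repeat binding pair Hnrnpl and Hnrnpll, and the U-like Hnrnpul1 and Hnrnpul2 were not called at any day. Their changes at D6 lay between -0.25 (Hnrnpul1) and 0.09 (Hnrnpl). Hnrnpul1 was the member with fewest reads, 204 in all.

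Among the SR proteins, Srsf9 was the only member that fell. It had 199, 209 and 203 RPM at D0, 120.0, 139 and 129 at D2, 169, 175 and 125 at D4 and 81.4, 76.7 and 88 at D6. The 3 D6 libraries lay below every other library, with a change of -1.31 ± 0.19 at D6 (limma, adjusted p = 4.81e-08). The falls at D2 (-0.62 ± 0.20) and D4 (-0.41 ± 0.16) were called as well, but the former was lost without any 1 library of D0 or D2 (-0.64 to -0.60) and the latter without any of 8 libraries (-0.41 to -0.22). Both were also lost with a mapping quality of at least 10 (-0.64 and -0.35), coding reads alone (-0.55 and -0.35) or scaling by total reads (-0.43 and -0.29). Srsf5 moved the other way and had 79.2, 122 and 96 RPM at D0, 152, 143 and 129 at D2, 144, 177 and 150.5 at D4 and 218, 215 and 182 at D6. It rose by 0.67 ± 0.18 at D4 and 1.04 ± 0.18 at D6 (limma, adjusted p = 0.00388 and 1.94e-06). With a mapping quality of at least 10, which 22.6% of its reads had, the D4 change was 0.75 and not called (limma, adjusted p = 0.1505). Out of 100 Srsf reads, Srsf9 took 9.24 ± 0.27 at D0 and 3.18 ± 0.38 at D6, and Srsf5 4.49 ± 0.89 and 7.91 ± 0.41 (SD, n = 3).

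Srsf4, the SR protein with the longest RS domain, had 52.8, 48.9 and 40.5 RPM at D0, 64, 85.7 and 103 at D2, 98.9, 88.5 and 115 at D4 and 111, 117 and 116 at D6. It rose by 0.87 ± 0.28 at D2, 1.08 ± 0.23 at D4 and 1.28 ± 0.23 at D6 (limma, adjusted p = 0.0285, 0.000182 and 4.5e-06). With a mapping quality of at least 10, which 13.6% of its reads had, the changes were 0.59, 1.05 and 0.45 on the 3 days in order and none was called (limma, adjusted p = 0.695, 0.207 and 0.641), and with coding reads alone the D2 change was 0.55 and not called (adjusted p = 0.389). The D2 call was lost without D0 replicate 2 (0.90), D0 replicate 3 (0.79), D2 replicate 2 (0.91) or D2 replicate 3 (0.72). Srsf7 had 290.2, 289.8 and 297 RPM at D0, 440.1, 416 and 356 at D2, 395, 407 and 399.7 at D4 and 440.2, 360.2 and 341 at D6. It was higher in every later library than in D0, by 0.46 ± 0.14 at D2, 0.46 ± 0.13 at D4 and 0.36 ± 0.13 at D6 (limma, adjusted p = 0.0262, 0.00504 and 0.0227). The D6 call was lost without D0 replicate 1 or 2 (0.34 each) or D6 replicate 1 (0.26), and the D2 call without D0 replicate 2 (0.45), D2 replicate 1 (0.37) or D2 replicate 2 (0.45). The D6 change was 0.59 under scaling by total reads and 0.61 with a mapping quality of at least 10.

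Srsf1, the prototype of the family, had 168, 228 and 203 RPM at D0, 208, 257 and 189 at D2, 218, 237 and 242 at D4 and 263, 298 and 264 at D6, and Srsf6 had 151, 129.9 and 111 RPM at D0, 184, 208 and 156 at D2, 189, 172 and 150.5 at D4 and 163, 202 and 206 at D6. Both were called at D6, with rises of 0.47 ± 0.15 and 0.57 ± 0.17 (limma, adjusted p = 0.0075 and 0.00479), and Srsf1 lost its call without D0 replicate 1 (0.35) or D6 replicate 2 (0.38). Srsf11, which works with the neural factor Srrm4 at microexons, had 93.5, 82.8 and 89.6 RPM at D0, 112, 89.7 and 124 at D2, 132, 93.3 and 118 at D4 and 133, 179 and 110.0 at D6. Its rise of 0.67 ± 0.20 (limma, adjusted p = 0.00463) was lost without D6 replicate 2 (0.42), the highest library, and with a mapping quality of at least 10 (0.53). Srsf3 and Srsf2, the SR genes with most reads, did not pass the test on any day. Srsf3 had 612, 649 and 589 RPM at D0, 656, 742 and 626 at D2, 807, 754 and 679.6 at D4 and 699, 616 and 599.6 at D6, and Srsf2 had 425, 406 and 369 RPM at D0, 384, 432 and 432 at D2, 441, 423 and 414 at D4 and 499, 392 and 374 at D6. For both genes the D0 and D6 libraries overlapped, as they did for Srsf10, a regulator that represses splicing when dephosphorylated (0.18 ± 0.19 at D6).

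Other parts of the splicing machinery were counted in the same fit, where 19.3% of all genes rose and 18.3% fell at D6. The lists are given as counts only and were not tested as sets. Of 21 relatives and regulators of SR proteins, 3 rose and 1 fell at D6 (median 0.31), and the 3 with most reads, Tra2b, Rnps1 and Tra2a, were not called. Of 18 hnRNP proteins under another symbol, 5 rose and 2 fell (median 0.23). By limma, Pcbp2, which binds runs of C, fell by 0.35 ± 0.11 at D6 (adjusted p = 0.00909), Nono of the paraspeckles rose by 0.36 ± 0.12 (adjusted p = 0.0158) and Pcbp1 was not called. Of 20 proteins of the U1 and U2 snRNPs and U2AF, 1 rose and 4 fell (median -0.17), with Snrpc, U2af1 and Sf3b2 not called. Of 8 Sm core proteins none rose and 4 fell (median -0.31), Snrpg among them (limma, -0.36 ± 0.11, adjusted p = 0.00503) but not Snrpe or Snrpf. At D2, 2 of the 8 rose and 1 fell, where 4.53% of all genes rose and 6.26% fell. At D4, 1 rose and 1 fell, where 12.7% of all genes rose and 12.8% fell. Of 15 factors of NMD and the exon junction complex, none rose and 3 fell (median -0.07), with Eif4a3 at -0.55 ± 0.13 and Rbm8a at -0.52 ± 0.15 (limma, adjusted p = 0.000325 and 0.00353) and Magoh not called.

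The next comparison asked on which kind of transcript the members' reads lay, using the biotype that the table gives each transcript. Coding transcripts took 89.9% of the members' reads at D0 and 90.1% at D6. NMD transcripts took 5.12% to 9.14% in the 12 libraries, against 1.10% to 1.67% over all genes. Retained intron transcripts took 1.60% to 2.93%, against 1.14% to 2.2% over all genes. The NMD reads were concentrated in 1 gene: Hnrnpa1 held 2341 of them, 28.1% of its reads.

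Most of these reads touched fewer than 20 bases that set the noncoding transcript apart from its gene's coding ones. Of the 14 NMD transcripts with at least 12 reads, 4 with 180 reads have no base of their own, so their reads could not be told apart this way. On the remaining 10 transcripts, 202 of 2971 reads (6.80%) touched 20 or more bases that no coding transcript of the gene has, and 2625 had a mapping quality under 10. Hnrnpa1-204 had 2254 reads and 34 of them (1.51%) did so, whereas 85 of the 87 reads on Hnrnpa1-203 did. For the 16 retained intron transcripts, 262 of 1033 reads (25.4%) touched 20 or more such bases, with 44 of 56 on Srsf7-207 and 6 of 150 on Srsf4-201. The biotype shares thus count the aligner's placement, and the reads that touched 20 or more such bases were far fewer.

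By this measure no member was called. The retained intron share was tested by limma on log2 odds in 12 members of 444 genes, and none was called at D2, D4 or D6 (1, 3 and 1 at an unadjusted p under 0.05), where 0.225%, 5.18% and 1.35% of all genes were called. The NMD share was tested in 12 members of 274 genes, and none was called (0, 4 and 0 at an unadjusted p under 0.05), where 0.365%, 4.38% and 3.28% of all genes were. The median member changed by 0.05 on the log2 odds scale at D6 in both measures, against -0.12 and -0.10 over all genes.

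Shares of 8 members, those with the lowest adjusted p at D6, are given by library. Srsf4 had the highest retained intron share, with 27.3%, 34.6% and 47.4% at D0, 50%, 57.1% and 42.1% at D2, 25%, 32.4% and 44.9% at D4 and 56.7%, 43.6% and 50% at D6 of its reads. Srsf3 had 9.8%, 10.4% and 9.06% at D0, 6.1%, 9.34% and 10.3% at D2, 6.12%, 5.08% and 8.3% at D4 and 8.99%, 9.0% and 4.59% at D6, and Hnrnpr 15.2%, 17.6% and 4.17% at D0, 0%, 15.6% and 10.5% at D2, 6.67%, 10.5% and 9.33% at D4 and 2.22%, 4.49% and 5.8% at D6. The libraries of 1 day often spread as widely as the days did. Hnrnpll had 4.17%, 1.96% and 0% at D0, 8.33%, 5.71% and 5.56% at D2, 0%, 2.13% and 5.13% at D4 and 7.69%, 7.14% and 2.86% at D6, Srsf2 2.26%, 1.85% and 1.73% at D0, 4.17%, 1.89% and 0% at D2, 3.74%, 2.26% and 2.27% at D4 and 4.44%, 3.8% and 2.94% at D6 and Hnrnpm 1.9%, 4.89% and 6.17% at D0, 0%, 3.03% and 5.26% at D2, 1.49%, 1.95% and 2.61% at D4 and 2.33%, 1.71% and 2.4% at D6. In Srsf2 every D6 library lay above every D0 library, with 0.90 ± 0.51 in log2 odds (limma, adjusted p = 0.483). Hnrnpk had 3.55%, 3.8% and 3.26% at D0, 1.39%, 0.518% and 3.25% at D2, 0.463%, 1.29% and 1.97% at D4 and 1.4%, 2.41% and 3.69% at D6 and Srsf6 4.76%, 7.25% and 1.92% at D0, 13%, 1.96% and 0% at D2, 4.35%, 5.56% and 3.12% at D4 and 4.55%, 7.37% and 6.67% at D6. Srsf5, Srsf7, Srsf11 and Hnrnpa2b1 were tested as well and were not called. With reads of mapping quality of at least 10 alone, 5 members could be tested among 94 genes, and Srsf2 and Srsf3 were called higher at D6, where 11.7% of all these genes were. Srsf2 then had 1 retained intron read of 530 at D0 and 11 of 427 at D6 (2.80 ± 0.75 in log2 odds), and Srsf3 had 5 of 620 and 23 of 589 (2.62 ± 0.71, limma, adjusted p = 0.0196 for both). With all its reads, Srsf3 changed by -0.44 ± 0.28.

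For NMD transcripts, Srsf3 had 13.7%, 10.4% and 7.61% at D0, 7.32%, 10.4% and 11.2% at D2, 7.65%, 6.67% and 7.27% at D4 and 5.82%, 9.0% and 6.42% at D6 of its reads. It had the lowest adjusted p of the members at D6 (-0.54 ± 0.26 in log2 odds, limma, adjusted p = 0.392). Srsf2 had 1.13%, 3.24% and 4.05% at D0, 4.17%, 4.72% and 5.0% at D2, 3.74%, 2.82% and 2.27% at D4 and 5.19%, 3.26% and 5.88% at D6 and Hnrnpa2b1 7.1%, 5.28% and 4.39% at D0, 3.12%, 4.15% and 6.09% at D2, 0%, 3.3% and 1.71% at D4 and 1.59%, 4.56% and 2.52% at D6. Hnrnpdl had 22.4%, 25.8% and 19.6% at D0, 18.5%, 17.4% and 13.3% at D2, 15.2%, 19.3% and 13.5% at D4 and 32.2%, 13% and 17.2% at D6, and Hnrnph3 31.6%, 3.7% and 7.41% at D0, 0%, 13.8% and 0% at D2, 18.5%, 5.26% and 16.7% at D4 and 15.8%, 13.6% and 19.6% at D6. Both spread widely within a day, and their reads per library were few. Srsf7 had 2.48%, 4.55% and 3.6% at D0, 1.82%, 4.9% and 1.52% at D2, 4.17%, 0.588% and 2.94% at D4 and 1.68%, 2.96% and 2.42% at D6, Srsf1 1.43%, 4.13% and 2.11% at D0, 0%, 0% and 2.86% at D2, 3.77%, 5.05% and 0.971% at D4 and 1.41%, 5.71% and 3.12% at D6 and Hnrnpl 17.5%, 5.8% and 18.1% at D0, 9.52%, 20% and 12.9% at D2, 9.68%, 10.9% and 19.4% at D4 and 14.3%, 14.9% and 12.7% at D6. Hnrnpa1, named here after its values were seen because it held most NMD reads, had 39.1%, 25.8% and 29% at D0, 26.4%, 32.2% and 26.8% at D2, 20.6%, 21% and 25.5% at D4 and 24.6%, 32.5% and 29.8% at D6. Its share was lower in each D4 library than in each D0 library, with -0.60 ± 0.17 in log2 odds (limma, adjusted p = 0.0579), and D4 was also the day with the longest aligned reads. The part of read length in these shares was not tested.

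Shares of single transcripts within their gene were tested for 124 member transcripts among 4622. None was called at D2 (8 at an unadjusted p under 0.05, limma), 7 at D4 and 5 at D6, where 0.281%, 5.08% and 2.12% of all transcripts were called. Those called at D6 came from Hnrnpab, Srsf7 and Hnrnpf. Hnrnpab-201, its main coding form, made up 82%, 86.6% and 80.9% at D0, 89%, 86.9% and 83.5% at D2, 90.2%, 93.9% and 90.2% at D4 and 92.4%, 89.7% and 93.3% at D6 of the gene's reads. Hnrnpab-202, a coding form, made up 14.9%, 10.2% and 14.9% at D0, 7.09%, 9.8% and 7.5% at D2, 3.92%, 3.38% and 5.72% at D4 and 4.5%, 6.98% and 5.35% at D6. The main form rose by 1.11 ± 0.23 in log2 odds and Hnrnpab-202 changed by -1.26 ± 0.23 (limma, adjusted p = 0.0124 and 0.00799). Of the Hnrnpab-202 reads 5.08% had a mapping quality of at least 10, and with such reads alone its change was -0.14 and that of the main form 0.75, neither of them called. These shares count the placement of reads. In reads that span the bases themselves, the 271-base coding segment found only in Hnrnpab-202 was present in 1.66% ± 0.84 at D0 and 1.11% ± 0.42 at D6 (39 of 3654 reads on all days), and was not called (-0.47 ± 0.60 in log2 odds, limma, adjusted p = 0.681). At D2 and D4 it was present in 0.377% ± 0.652 and 0.406% ± 0.487, and its D4 change of -1.73 ± 0.59 (limma, adjusted p = 0.0727), beside -1.71 for the placement share, was not called. The 141-base segment that Hnrnpab-202 shares with Hnrnpab-203 was present in 6.65% ± 1.60 and 4.12% ± 1.72 and was not called either (-0.72 ± 0.30, limma, adjusted p = 0.132).

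Of the reads of Srsf7, the coding form Srsf7-208 made up 36.4%, 49.4% and 42.4% at D0, 36.4%, 36.3% and 31.8% at D2, 33.3%, 35.9% and 34.1% at D4 and 24.4%, 30.8% and 30.6% at D6. Srsf7-201, a longer coding form, made up 43.8%, 31.8% and 45.3% at D0, 50.9%, 42.2% and 62.1% at D2, 47.9%, 55.3% and 53.5% at D4 and 57.1%, 56.8% and 55.6% at D6. All D6 libraries lay below D0 for the former (-0.90 ± 0.20, limma, adjusted p = 0.0248) and above D0 for the latter (0.98 ± 0.24, adjusted p = 0.0424). Hnrnpf-209 made up 10.4%, 13.2% and 13% at D0, 14.3%, 16.6% and 19.3% at D2, 17.1%, 13.8% and 17.2% at D4 and 16.5%, 22.8% and 20.2% at D6 and rose at D6 (0.87 ± 0.22, limma, adjusted p = 0.0433). Of these calls, Hnrnpab-202 was kept whichever library was left out (-1.26 with all), Srsf7-208 was lost without any of 4 libraries, Hnrnpab-201 of 3, Srsf7-201 of 6 and Hnrnpf-209 of 10. Within the December runs only Srsf7-208 was called (-1.18, limma, adjusted p = 0.0485), while Hnrnpab-202 (-1.09), Hnrnpab-201 (0.95), Srsf7-201 (0.98) and Hnrnpf-209 (1.01) moved the same way without a call.

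The transcripts next in order were not called at D6. Of its gene's reads, Hnrnph2-205 made up 79.2%, 83.3% and 73.3% at D0, 60%, 81.2% and 50% at D2, 39.4%, 53.7% and 51.4% at D4 and 58.1%, 57.8% and 58.8% at D6, and it was lower at D4 (-1.97 ± 0.43, limma, adjusted p = 0.0158). Hnrnpc-209 made up 14.2%, 13.4% and 15% at D0, 11.3%, 10.4% and 4.35% at D2, 16.8%, 11.4% and 11.8% at D4 and 10.5%, 8.0% and 6.94% at D6. Hnrnpu-205, a processed transcript with no read of mapping quality 10 or more, made up 1.19%, 1.8% and 1.2% at D0, 0%, 0.694% and 0% at D2, 4.12%, 2.07% and 2.51% at D4 and 2.44%, 4.46% and 3.61% at D6. At D4 the other calls were Hnrnph2-203, Hnrnpa3-203 and Hnrnpk-201, which rose, and the NMD form Hnrnpa2b1-207, which fell, and with reads of mapping quality of at least 10 Hnrnpa3-203 changed by -0.28, Hnrnpk-201 by 0.44, Hnrnpab-201 by 0.28 and Hnrnpab-202 by -0.67, none of them called. Of the 7 calls at D4, that of Hnrnpab-202 (-1.71) was kept whichever library was left out and that of Hnrnpab-201 (1.15) was lost without D4 replicate 2 (0.85). The calls of both Hnrnph2 forms were each lost without 2 libraries, Hnrnpa3-203 without 4, Hnrnpk-201 without 8 and Hnrnpa2b1-207 without 9. With equal weights for all libraries none of the transcript calls at D4 or D6 was kept, those of Hnrnpab-202 included (limma, adjusted p = 0.137 and 0.204).

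Because full-length reads were a minority, exon choice was also measured in reads that span an alternative segment on both sides, so that reads from the 3′ end alone no longer count. It still rests on the transcript to which the aligner gave each read. This measure, like that of 3′ ends, was chosen after the data had been seen. The exons shown here change the protein in a known way. Sequences are of the RNA strand in GRCm38 from the transcripts of GENCODE M21, with the alternative bases in capitals between coding bases on either side. The exon of Hnrnpd (chr5:99976534-99976590, minus strand, 57 bases, 19 codons) is 1 of 2 whose inclusion makes the AUF1 isoforms. That of Hnrnpa2b1 (chr6:51467391-51467426, minus strand, 36 bases, 12 codons) separates B1 from A2. In Hnrnpc the alternative part is the 3′ end of an exon (chr14:52081789-52081827, minus strand, 39 bases, 13 codons) and separates C2 from C1. All 3 are multiples of 3 and keep the reading frame.
Hnrnpd: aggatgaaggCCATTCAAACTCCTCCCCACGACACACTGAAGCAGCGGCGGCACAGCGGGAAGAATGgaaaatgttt
Hnrnpa2b1: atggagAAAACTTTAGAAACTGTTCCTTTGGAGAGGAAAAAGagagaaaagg
Hnrnpc: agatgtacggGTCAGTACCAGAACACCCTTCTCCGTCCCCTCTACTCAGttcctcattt

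Of 42 segments in 17 members, 4 were called at D6, 4 at D4 and 1 at D2, where 10.7%, 8.01% and 2.15% of all 512 segments tested were called. Of spanning reads, the Hnrnpd exon, measured over its first 39 bases, was included in 50%, 54.5% and 44% at D0, 64%, 66.7% and 50% at D2, 66%, 56.1% and 63.5% at D4 and 66.2%, 63.6% and 71.2% at D6. It went from 49.5% ± 5.3 to 67% ± 3.9 (SD, n = 3), a rise of 0.99 ± 0.26 in log2 odds (limma, adjusted p = 0.0142), and no D6 library overlapped D0. The call was lost without D0 replicate 3 (0.84) or D6 replicate 3 (0.86), and within the December runs (1.11, limma, adjusted p = 0.0505). The other alternative exon of Hnrnpd, of 147 bases near the end of the coding part, was included in 60.1% ± 4.3 at D0 and 59.3% ± 3.8 at D6 and was not called (-0.05 ± 0.21). In 866 reads that span both exons, 285 had both (Hnrnpd-211), 226 the 57-base exon alone (Hnrnpd-201), 196 the 147-base exon alone (Hnrnpd-203) and 159 neither (Hnrnpd-202). The form with neither went from 22.1% ± 6.2 of such reads at D0 to 14.3% ± 4.6 at D6, and its libraries overlapped.

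The B1 exon of Hnrnpa2b1 was included in 37.8%, 52.2% and 52.4% at D0, 34.8%, 33.3% and 44.8% at D2, 42.1%, 46% and 54.7% at D4 and 47.5%, 43.6% and 45.5% at D6 and the C2 segment of Hnrnpc in 36%, 21.3% and 30% at D0, 27.5%, 29.5% and 20% at D2, 27.5%, 29.7% and 31.2% at D4 and 26.1%, 28% and 23.2% at D6. In both the D6 libraries lay within the D0 range, with changes at D6 of -0.23 ± 0.25 and -0.14 ± 0.26 (limma, adjusted p = 0.608 and 0.797).

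**Figure D3:**
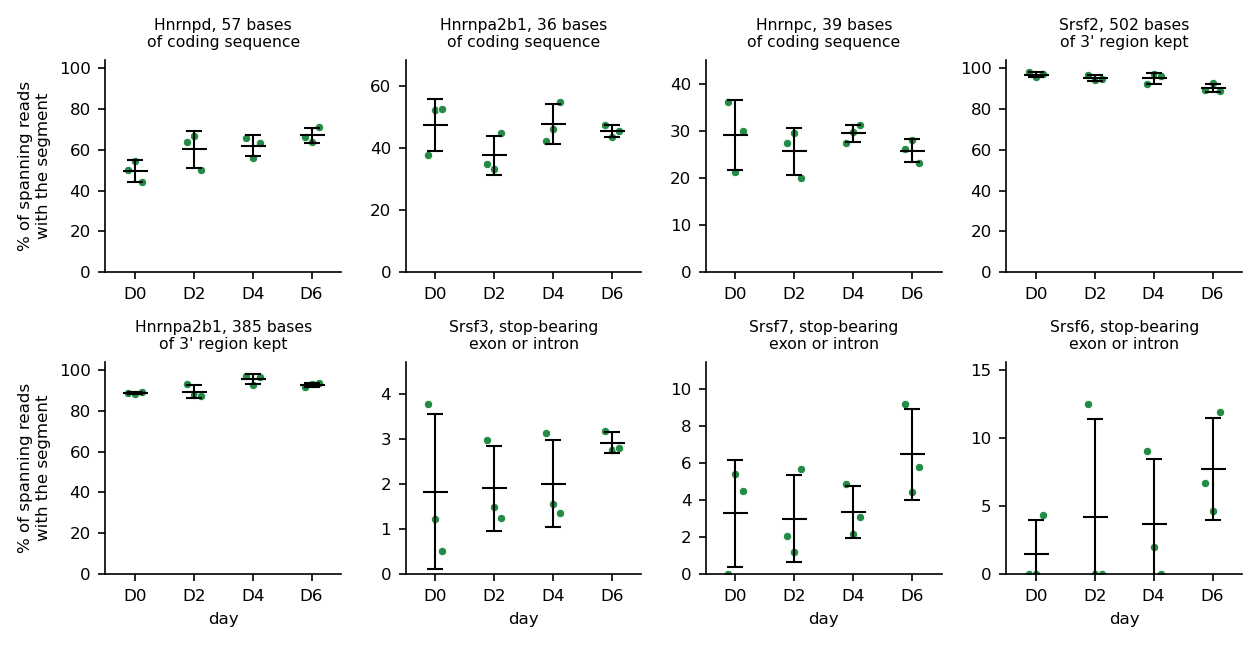
Percentage of spanning reads that contain a segment (vertical axis) for 8 segments at D0, D2, D4 and D6. Points are libraries and bars the mean and SD of 3, drawn down to 0 at most. Inclusion of the Hnrnpd exon is higher in every D6 library than in every D0 library, the D6 libraries of the B1 exon and the C2 segment lie within their D0 range, and the stop-bearing segments of Srsf3 and Srsf7 stay under 10% and that of Srsf6 reaches 12.5% in 1 library.

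Segments in 3′ regions were called too. In Srsf2 (SC35), which is known to promote splicing within its own 3′ UTR and so expose its mRNA to NMD, 502 bases were kept in 98%, 95.5% and 96.9% at D0, 96.8%, 94% and 94.5% at D2, 92%, 96.9% and 95.9% at D4 and 89.4%, 92.6% and 88.6% at D6. Retention went from 96.8% ± 1.2 to 90.2% ± 2.1, a change of -1.53 ± 0.42 in log2 odds (limma, adjusted p = 0.0193), lost without D0 replicate 1 (-1.28), D6 replicate 1 (-1.45) or D6 replicate 3 (-1.40) and within the December runs (-1.25). The level of Srsf2 was not called at any day. In Hnrnpa2b1, 2 neighbouring 3′ segments of 70 and 385 bases were kept in 88.1% ± 0.42 and 88.6% ± 0.44 of spanning reads at D0 and 95.4% ± 2.4 and 95.5% ± 2.4 at D4 (limma, adjusted p = 0.00184 and 0.00198), and were not called at D6. These segments adjoin and are not independent, with 660 of 695 and 671 of 706 spanning reads at D4. A 40-base segment of Hnrnpa2b1-211 was present in 6.28% ± 8.25 at D0 and 25% ± 2.4 at D6, over 252 spanning reads in all (2.86 ± 0.81, limma, adjusted p = 0.0235), and the call was lost without any 1 of the D6 libraries (2.80 to 3.00).

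In Hnrnpdl a 441-base segment was present in 34.9%, 24.5% and 15.4% at D0, 3.7%, 2.5% and 7.41% at D2, 4.76%, 14.5% and 12.3% at D4 and 14%, 17% and 19.2% at D6. It was lower in all D2 libraries than in any of D0, by 2.57 ± 0.53 in log2 odds (limma, adjusted p = 0.00856), a call lost without D2 replicate 2 (-2.16), and a 105-base segment was lower at D4 (-1.28 ± 0.37, adjusted p = 0.0349). These segments of Hnrnpdl lie outside the coding part, and the D0 libraries spread from 15.4% to 34.9%. An 86-base coding segment of Hnrnpm was called at D4, with 2.51% ± 1.06 at D0 and 0.23% ± 0.40 at D4 (-2.17 ± 0.60, limma, adjusted p = 0.0252). The 105-base call of Hnrnpdl was lost without any of 4 libraries (-1.37 to -0.90), and that of Hnrnpm without any of 3 (-2.10 to -1.54) or with 2 reads added (-1.04). With equal weights for all libraries no segment kept its call at D4 or D6. The adjusted p was then 0.124 and 0.136 for the Hnrnpa2b1 segments called at D4, and 0.184 for Hnrnpd, 0.0613 for Srsf2 and 0.101 for the 40 bases of Hnrnpa2b1 at D6 (limma).

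Poison exons are shown next because their inclusion is the known means by which SR genes restrain themselves. Each sequence runs from the start of the exon or retained stretch to its stop codon in the frame of the upstream coding exons, and the stop codon is in capitals. For Srsf3-201 the stop was 34 bases in (chr17:29039454-29039487, plus strand, GRCm38), for Srsf7-203 28 bases in (chr17:80205054-80205081, minus strand) and for Srsf6-201 152 bases in (chr2:162932815-162932966, plus strand).
Srsf3: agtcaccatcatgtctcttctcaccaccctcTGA
Srsf7: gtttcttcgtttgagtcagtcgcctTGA
Srsf6: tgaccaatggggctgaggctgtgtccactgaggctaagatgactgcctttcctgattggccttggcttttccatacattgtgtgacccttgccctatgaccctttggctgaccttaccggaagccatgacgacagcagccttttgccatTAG

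All 3 were rare in the reads sequenced. How often they are spliced in was not measured, since RNA lost to decay gives no read. The counts include reads on the retained intron transcripts Srsf3-204, Srsf7-206, Srsf7-207 and Srsf6-204, so they are not of poison exons alone. For Srsf6, 16 of 342 spanning reads had the segment, and 14 of 347 had the next segment, found only in Srsf6-204. Of spanning reads, the 64-base part of the Srsf3 exon was present in 3.77%, 1.21% and 0.51% at D0, 2.99%, 1.48% and 1.25% at D2, 3.12%, 1.55% and 1.35% at D4 and 3.18%, 2.75% and 2.81% at D6, the 460-base segment of Srsf7 in 0%, 5.38% and 4.5% at D0, 2.08%, 1.22% and 5.66% at D2, 4.88%, 2.14% and 3.08% at D4 and 9.18%, 4.44% and 5.77% at D6 and the 268-base segment of Srsf6 in 0%, 0% and 4.35% at D0, 12.5%, 0% and 0% at D2, 9.09%, 1.96% and 0% at D4 and 6.67%, 4.65% and 11.9% at D6. D6 means were above D0 means in each (2.92% against 1.83%, 6.47% against 3.30% and 7.74% against 1.45%), but none was called (1.06 ± 0.56, 1.12 ± 0.66 and 1.43 ± 0.98 in log2 odds, limma, adjusted p = 0.245, 0.304 and 0.366). Srsf6 rested on 1 of 63 reads at D0 and 9 of 115 at D6.

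Poly(A) tails protect an mRNA from decay and are bound by poly(A) binding proteins. Tails of the members were longer than those of other genes in 12 of 12 libraries, with a pooled median of 106 to 118 nt in the 12 libraries against 95.3 to 106 nt for the rest. The members' pooled median was 107 to 113 nt at D0 and 117 to 118 nt at D6, where that of the other genes was 100.3 to 106 and 100.6 to 103 nt. Tails under 30 nt made up 1.51% to 3.61% of the members' reads and overlapped between all days. Tails of 30 to 90 nt made up 32.6% to 35.8% at D0 and 30.7% to 31.2% at D6. The same share is not given for the other genes, so whether the difference is particular to the members cannot be told. By gene, the median of the 29 members with enough reads went from 116 to 123 nt between D0 and D6, against 106 and 109 nt over 2533 genes, and 24 of 29 members lay above the median of all genes at D0.

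Across the members the mean tail ran from 98.0 to 143 nt at D0. The longest tails at D0 were those of Hnrnpul2, Hnrnpl and Srsf6. Hnrnpul2 had medians of 156, 133 and 139 nt at D0, 92.4, 161 and 118 at D2, 117, 124 and 137 at D4 and 141, 146 and 147 at D6, Hnrnpl 148, 139.6 and 139 nt at D0, 139, 152 and 153 at D2, 114, 125 and 132 at D4 and 136, 152 and 141 at D6 and Srsf6 139, 122 and 153 nt at D0, 118, 113 and 119 at D2, 163, 144 and 141 at D4 and 169.7, 156 and 140.2 at D6. The shortest were those of Hnrnpd, Hnrnpa1 and Hnrnpab. Hnrnpd had medians of 102, 84.5 and 107 nt at D0, 91.7, 81.3 and 97.2 at D2, 81.7, 82.4 and 103 at D4 and 96.4, 103 and 99.2 at D6, Hnrnpa1 95.1, 99 and 101 nt at D0, 102, 92.9 and 92.7 at D2, 94.7, 92.4 and 96.1 at D4 and 91.3, 93 and 92.7 at D6 and Hnrnpab 94.7, 101 and 101 nt at D0, 102, 92.1 and 95.9 at D2, 95.7, 94.7 and 101 at D4 and 116, 95.6 and 97.2 at D6. Every Hnrnpl library lay above every Hnrnpa1 library.

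At D6, 5 of 29 members had longer tails than at D0 by limma on the medians, and none had shorter ones, where 3.32% of all genes had longer and 4.97% shorter tails. The median member changed by 4.38 nt, against 2.52 nt over all genes. No member was called at D4 and 1 at D2, where 5.57% and 3.75% of all genes were called. Hnrnpu had medians of 109, 117 and 126 nt at D0, 124, 124 and 109 at D2, 124, 104 and 122 at D4 and 132, 138 and 143 at D6. All D6 libraries lay above all others, by 21.2 ± 4.7 nt over D0 (limma, adjusted p = 0.000831), in a gene whose reads had fallen. Hnrnph1 had medians of 143, 131 and 134 nt at D0, 120.5, 147 and 183 at D2, 151, 137 and 156 at D4 and 153, 155 and 159 at D6, and changed by 20.4 ± 6.1 nt (adjusted p = 0.0245, limma).

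The 3 other members called were SR genes whose reads had risen. Srsf5 had medians of 122, 145 and 126 nt at D0, 117, 139 and 172 at D2, 151, 144 and 132 at D4 and 158, 157 and 189 at D6, a rise of 33 ± 9.0 nt (limma, adjusted p = 0.0102). Srsf1 had medians of 98.6, 108 and 114 nt at D0, 106, 104 and 116 at D2, 114, 124 and 125 at D4 and 116, 134 and 131 at D6, a rise of 21.6 ± 6.25 nt (adjusted p = 0.0177), and Srsf11 had 158, 113 and 140.0 nt at D0, 140.2, 115 and 159 at D2, 159, 130.1 and 139.6 at D4 and 149.9, 178 and 170.0 at D6, a rise of 33.5 ± 9.99 nt (adjusted p = 0.0227). Srsf3, next in order, had 108, 115 and 115 nt at D0, 107, 100.0 and 105 at D2, 115, 109 and 110.3 at D4 and 114, 128 and 127 at D6 and was not called (10.7 ± 3.91 nt, limma, adjusted p = 0.0825). Except for Hnrnpu, each of these calls was lost on leaving out some single library. Srsf5 was at 29.5, 29.6 and 23.7 nt without D0 replicate 1, D0 replicate 3 and D6 replicate 3, Srsf1 at 17.1 to 21.8 nt without D0 replicate 1 or 2 or D6 replicate 2 or 3, Srsf11 at 21 and 24.4 nt without D0 replicate 2 and D6 replicate 2, and Hnrnph1 at 17.9 to 20.9 nt without replicate 2 or 3 of D0 or D6. With coding reads alone the changes of Srsf5 (10.7 nt), Hnrnph1 (13.7 nt) and Srsf11 (28.6 nt) were not called (limma, adjusted p = 0.614, 0.215 and 0.184). With means of the log2 length in place of medians, Srsf5 and Srsf11 were not called (limma, adjusted p = 0.117 and 0.0514). With equal weights for all libraries none of the 5 was called, nor with D6 reads from the December runs alone (11.1 to 26.6 nt).

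Hnrnpf was the member called at D2. It had medians of 117, 101 and 109 nt at D0, 141, 128 and 129 at D2, 123, 121 and 107 at D4 and 107, 108 and 123 at D6. All D2 libraries lay above all D0 libraries, by 22.4 ± 5.3 nt (limma, adjusted p = 0.00341), and the D6 libraries overlapped D0. The call was lost without D0 replicate 2 (17.7 nt) and with a mapping quality of at least 10 (21.8 nt).

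**Figure D4:**
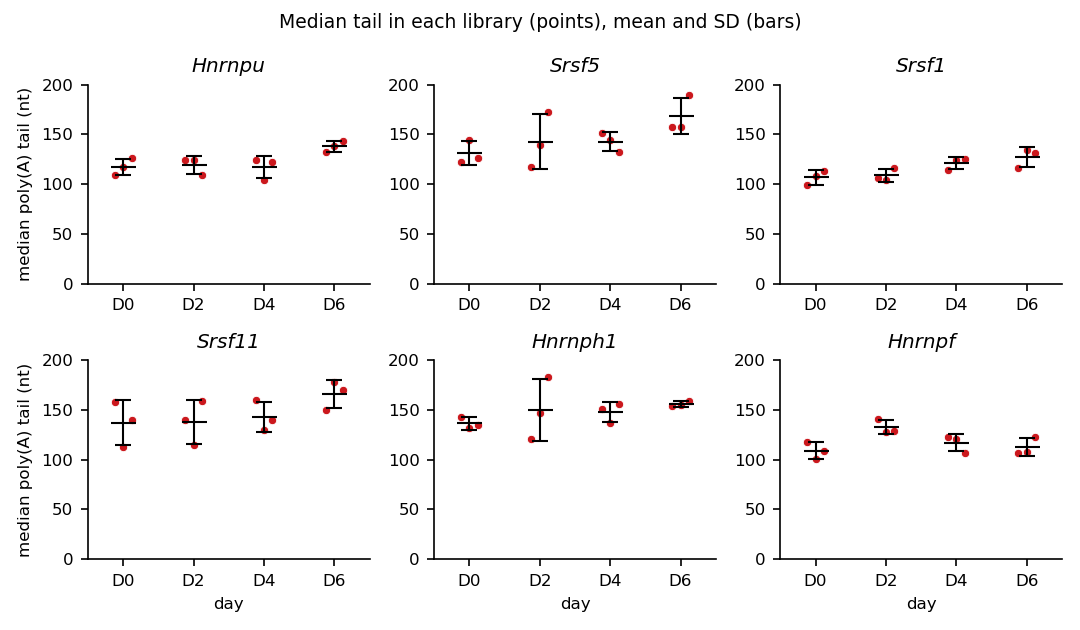
Median poly(A) tail length in nt (vertical axis, from 0) in each library for 6 members at D0, D2, D4 and D6. Points are libraries and bars the mean and SD of 3. The D6 libraries of Hnrnpu sit at 132 to 143 nt, above its other libraries, and Hnrnpf is longest at D2.

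Each read also gives the 3′ end of its mRNA. The table gives each read a cluster number that no source used here explains and that was taken, from its values, to group the alignment ends on a transcript. The main proximal and main distal cluster, at least 100 bases apart and each with at least 10% of reads, were compared, which gave 20 transcripts of 13 members. The windows shown are those of 5 transcripts, 30 bases that end 5 bases before the end, with the poly(A) signal AATAAA in capitals. They are shown because both ends of each carry it. AATAAA was searched on the transcript strand in these windows and was found at 31 of 36 member ends searched and at 54.5% of 3022 ends of all genes, and AATAAA or ATTAAA at 33 of 36 and 72.0%. The 36 member ends are those of transcripts that passed the read minimums of the test. The 3022 ends were not filtered in this way, so the sets are not alike. Positions are in GRCm38, and transcripts are named as in GENCODE M21. The reads had been aligned to an earlier GENCODE release, and 6 of 160 member transcripts, 2 of the 20 compared here among them, have no entry in M21.
Hnrnpa0-201 proximal (chr13:58126918-58126947, minus strand): gttttatttttAATAAAtcattgtgtttga
Hnrnpa0-201 distal (chr13:58125884-58125913, minus strand): tttatggatatcacaAATAAAgaattcaat
Hnrnpk-201 proximal (chr13:58391955-58391984, minus strand): gttttatgatttttaaAATAAAtttagtga
Hnrnpk-201 distal (chr13:58391244-58391273, minus strand): caaaatccacatctaAATAAAacttccatg
Srsf7-201 proximal (chr17:80201315-80201344, minus strand): atttgacacgtttaAATAAAatgtttctaa
Srsf7-201 distal (chr17:80200089-80200118, minus strand): taagtttgttcAATAAAtctgcagagattg
Hnrnpab-201 proximal (chr11:51600881-51600910, minus strand): tatccaagcttttgaAATAAAaatgaaaaa
Hnrnpab-201 distal (chr11:51600105-51600134, minus strand): cggtagttttcttaAATAAAttgagggaga
Hnrnpa1-202 proximal (chr15:103244543-103244572, plus strand): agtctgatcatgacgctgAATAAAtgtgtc
Hnrnpa1-202 distal (chr15:103244917-103244946, plus strand): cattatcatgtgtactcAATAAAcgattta

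The distal end gained reads at D6 in 3 of the 20 transcripts and lost them in none, where 16.6% of all 476 transcripts gained and 2.73% lost, so the members' share was near that of all genes. The median change was 0.42 in log2 odds, against 0.36 over all. At D4, 1 member transcript was called and at D2 none (2 at an unadjusted p under 0.05, limma), where 5.25% and 2.31% of all were. Hnrnpa1-202 had 69.6%, 69.7% and 68.5% at D0, 65%, 66.9% and 75.9% at D2, 76.2%, 70.5% and 76.1% at D4 and 75.8%, 76.6% and 79.8% at D6 of reads at the distal end. D6 lay above D0 in every library (69.3% ± 0.64 to 77.4% ± 2.1, 0.61 ± 0.15 in log2 odds, limma, adjusted p = 0.00255). Hnrnpab-201 had 13.3%, 9.94% and 11.5% at D0, 17.5%, 16.7% and 12.4% at D2, 15.7%, 12.5% and 15.2% at D4 and 17.1%, 16.2% and 14.8% at D6 (0.57 ± 0.18, adjusted p = 0.0183). Hnrnpk-201 had 7.89%, 20% and 17% at D0, 21.1%, 9.09% and 40% at D2, 29.7%, 26.5% and 22.2% at D4 and 29.1%, 27% and 34.9% at D6 (1.16 ± 0.39, adjusted p = 0.0265). The call of Hnrnpab-201 was lost without D0 replicate 2 (0.44), D6 replicate 1 (0.53) or D6 replicate 2 (0.56), and that of Hnrnpk-201 without D0 replicate 1 (0.89), D0 replicate 3 (1.21) or D6 replicate 3 (1.00). With equal weights for all libraries none of the 3 was called (limma, adjusted p = 0.272, 0.3199 and 0.192 in the order given). Within the December runs Hnrnpa1-202 was called (0.73, limma, adjusted p = 0.0118) and Hnrnpab-201 (0.48) and Hnrnpk-201 (0.95) were not.

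Srsf7-201, whose ends lie 1226 bases apart, had 26.9%, 30.6% and 28.6% at D0, 40.7%, 44.2% and 29.3% at D2, 35.6%, 49.5% and 48.9% at D4 and 37.3%, 47.9% and 37.7% at D6 at the distal end. It was called at D4 (1.09 ± 0.31, limma, adjusted p = 0.0234) and not called at D6 (0.81 ± 0.31, adjusted p = 0.0537). The D4 call was lost without any of 5 libraries (0.97 to 1.15). Hnrnpa3-203 was nearer the threshold at D6, with 52%, 57.1% and 58.4% at D0, 47.8%, 57.7% and 51.9% at D2, 47.1%, 56.1% and 63.8% at D4 and 78.1%, 57.2% and 71.6% at D6 and a change of 0.66 ± 0.25 (limma, adjusted p = 0.0503), and its D6 libraries overlapped those of D0. Hnrnpa0-201, with 1699 reads at the proximal and 888 at the distal end, had 29.3%, 35.6% and 32.1% at D0, 33.3%, 34.9% and 33.6% at D2, 30.5%, 33.1% and 29.8% at D4 and 41.3%, 41.4% and 32.9% at D6 and was not called.

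The tails of reads at both ends were then compared, as a description. The pooled median was longer at the distal end in 18 of 20 member transcripts (90%), where it was in 366 of all 476 (76.9%). Over libraries, the median difference ran from -4.85 to 46.5 nt, with a median over member transcripts of 19.7 nt against 8.80 nt over all. In at least 9 libraries the distal end had the longer tails in 11 of the 20 (55%) and in 163 of all 476 (34.2%). Hnrnpa0-201 had 130 nt at the distal and 103 nt at the proximal end, Hnrnpab-201 128 and 95.0 nt and Hnrnpa3-203 117 and 90.5 nt, and in each the distal end was longer in 12 of 12 libraries. The largest median difference over libraries, 46.5 nt, was in Srsf1-205 (161 and 116 nt, longer in 11 libraries). The exceptions were both of Hnrnpu, with 116 nt at the distal and 125 nt at the proximal end in 1 and 118 and 119.9 nt in the other. Transcripts of 1 gene share ends and are not independent.

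**Figure D5:**
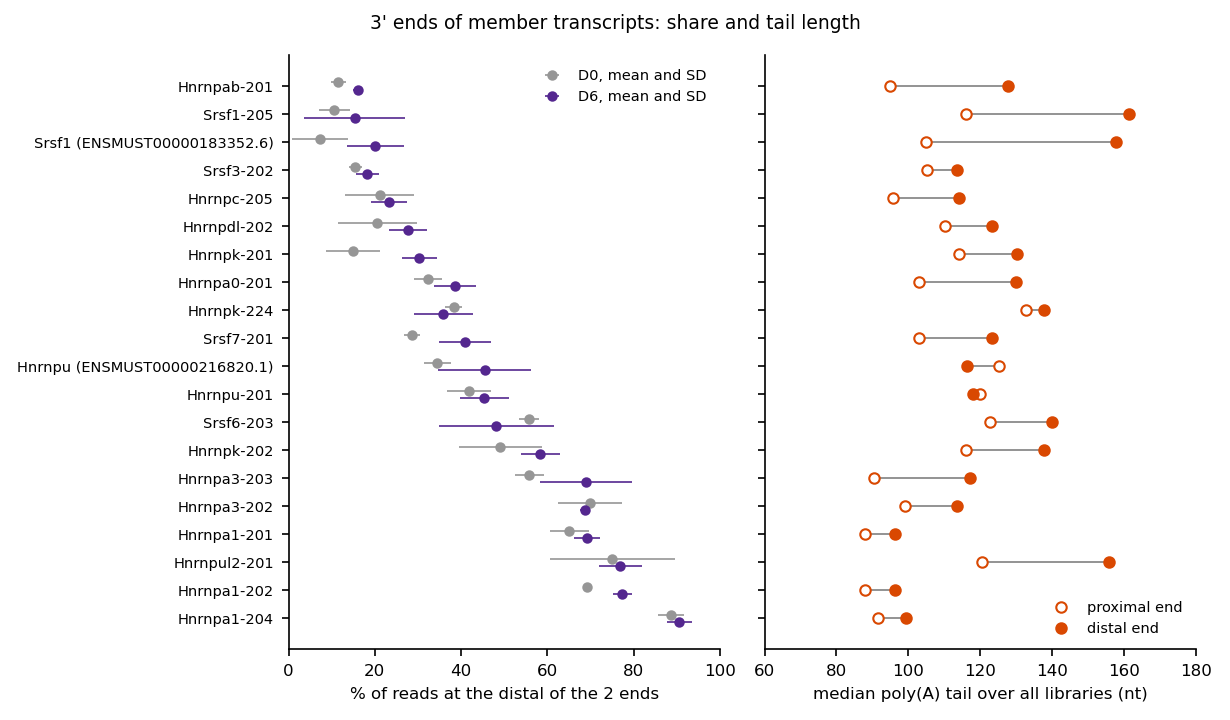
Left, percentage of reads at the distal of both ends at D0 (grey) and D6 (purple), as mean and SD of 3 libraries, for 20 transcripts. Right, median tail length in nt over all libraries at the proximal (open) and distal (filled) end. The filled point lies to the right of the open one in 18 of the 20 transcripts.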

How the data were processed

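Direct RNA reads of 12 libraries of P19 cells were analysed, 3 at each of D0, D2, D4 and D6. The authors used Guppy for base calls, Minimap2 (version 2.20 in the submitters' processing notes) for alignment to mm10 transcripts, Nanopolish for tails and Deeplexicon for the barcodes of the replicates. The deposited table has 1 line for each alignment, with the tail length in nucleotides, the start and end on the transcript, and the mapping quality, a score of the aligner, and nothing was normalized by the authors. A deposited table of the authors' DESeq2 fold changes and adjusted p-values was not used.

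Of 6306434 lines, 69 were malformed and 289260 had no barcode call. Kept reads had a passed tail call and an mRNA transcript that was not a pseudogene, and mitochondrial transcripts were left out. Counts, shares and medians were computed from these reads, 118587 to 602155 a library, and the precision of each value was limited by its reads. The members and gene lists were chosen with earlier results of these data known. Segment inclusion, 3′ ends and the setting with D6 reads of December runs alone were chosen after seeing the data.

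Tests used limma 3.58.1 in R 4.3.3 over all features, with all 12 libraries in the fit, each day against D0 and Benjamini-Hochberg adjustment at 0.05. Reads per gene (at least 30 in all) were tested with voom weights and trimmed mean scaling, and the design had expected counts per gene where the table held reads. Shares (mean of at least 20 reads and at least 5 in every library, at least 12 on each side) were tested as log2 odds with 0.5 reads added on each side, and tails as medians, both weighted by reads. Segments had at least 20 bases, and spanning reads reached 5 bases past them. A segment counted among the D6 calls is not reported here. Scripts were tested on simulated data. Replicate numbers were not used to pair the libraries in the main fits. The 18 correlations of deviations between same numbers ran from -0.14 to 0.17, and those between different numbers from -0.20 to 0.17. Every member was named, with values by library for members called by reads, the 3 with most reads of each family, the 8 lowest adjusted p at D6 for retained intron, NMD and transcript shares, and for tails the 3 longest, 3 shortest and 6 lowest adjusted p. Coordinates are from GENCODE M21 on GRCm38. Alternatives were other scalings, filters, weights, mapping quality of at least 10, coding reads alone, means of log2 tail length, limma's trend, a replicate block and leaving out each library.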

Additional observations from a re-analysis of the deposited data

How the results depend on the processing

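Of 61 called values 12 were kept under all alternatives, all of them of reads per gene (6 at D4 and 6 at D6). Hnrnpu and Srsf1 had no read with a mapping quality of at least 10, so that setting gave no value for them. Over 1139 alternative values 912 kept direction and call, 224 lost the call and 3 were reversed, each at D4 with a mapping quality of at least 10 (reads of Hnrnpr -0.0647 and Hnrnpf 0.76, transcript share of Hnrnpa3-203 -0.28). Why these values changed was not tested.

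Counts of called members moved as follows, with D2, D4 and D6 in order. Leaving out 1 library gave 0 to 5, 9 to 12 and 12 to 17 for reads (4, 11 and 15 with all), 0 to 0, 0 to 1 and 0 to 0 for retained introns, 0 to 0, 0 to 2 and 0 to 0 for NMD, 0 to 0, 3 to 17 and 1 to 5 for transcripts (0, 7 and 5), 1 to 1, 0 to 0 and 2 to 6 for tails (1, 0 and 5), 0 to 2, 2 to 6 and 1 to 7 for segments (1, 4 and 4) and 0 to 0, 0 to 1 and 2 to 4 for ends (0, 1 and 3). Total reads gave 11 for reads at D2. A mapping quality of at least 10 gave 2 for reads at D2, 2 for retained introns at D6, 3 and 4 for transcripts at D2 and D4, and 0 and 2 for tails at D2 and D6. Coding reads alone gave 2 for reads at D2 and 2 for tails at D6, and a mean of at least 10 reads gave 1 for NMD at D4. Equal weights gave 0 in every transcript, tail, segment and end count at D4 and D6, and 0 for tails at D2. With 2 reads added, segments at D6 were 7 and ends 2 at D4 and 6 at D6. D6 reads of December runs alone gave 1 for transcripts, tails, segments and ends at D6.

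With the replicate block the counts were 6, 10 and 15 for reads, 4 and 2 for transcripts at D4 and D6, 2 for segments and 0 for ends at D4 and 2 for ends at D6. Of the 18 correlations between libraries of the same number, 4 were over 0.1. Whether the numbers pair the libraries cannot be told from them.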
